A study of Mus musculus with 9 samples.

Results

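The D-type cyclins and the inhibitors of cyclin-dependent kinases (CDKs) are 10 genes among the 55401 genes measured in mouse skin fibroblasts. They comprise 3 D-type cyclins (Ccnd1, Ccnd2, Ccnd3), 3 inhibitors of the CIP/KIP family (Cdkn1a, Cdkn1b, Cdkn1c) and 4 inhibitors of the INK4 family (Cdkn2a, Cdkn2b, Cdkn2c, Cdkn2d). Members were found by matching mouse symbols to Ensembl identifiers. All 10 were present and all 10 passed the filter on low values.

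Bulk RNA-seq was done on primary fibroblasts cultured from newborn mouse skin (wild-type genotype), which were kept in DMEM with 10% fetal bovine serum. The 9 libraries form 3 groups of 3: control cultures, cultures treated with tumor-conditioned medium (TCM), and cultures treated with TCM after lipid removal, called lipid-depleted TCM. TCM was DMEM with 10% fetal bovine serum taken after 24 h from dishes of YUMM1.7, a melanoma line of the mouse. Cleanascite is a lipid-adsorbing reagent and was used to deplete it. The labels do not state the medium of the control cultures during treatment, the length of treatment, or whether replicates came from separate animals or cultures. P-values therefore measure the spread between these libraries, which may be technical. No group received unconditioned medium treated with the reagent, so lipid removal and any other effect of the reagent cannot be told apart.

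D-type cyclins bind CDK4 and CDK6 in response to growth signals, and the complex phosphorylates the retinoblastoma protein RB, which releases E2F factors to transcribe the genes of DNA replication. INK4 proteins bind CDK4 and CDK6 and keep the D cyclins from them, whereas CIP/KIP proteins act mainly on the complexes of CDK2 with the E and A cyclins. In cultured mouse fibroblasts the Cdkn2a and Cdkn2b genes are known for rising with serial passage and with oncogenic stress, and Cdkn1a is a standard target of the p53 protein.

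Depth was similar across libraries, with 51015024 to 64965906 reads recovered per library. Values are normalized counts, that is, reads divided by a size factor per library, as the authors deposited them. All 10 fibroblast markers checked were above 0 in each group, and their sum was 2295900 to 2361500 normalized counts in control. It was lower in TCM, at 1142000 to 1330700, and in lipid-depleted TCM, at 1502100 to 1552700. The collagen genes Col1a1, Col1a2 and Col3a1 make up most of that sum, and the markers did not move one way: 4 of 10 were higher and 5 lower in TCM than in control. Pdgfra, a receptor that marks fibroblasts, measured 13456 to 14200 normalized counts in control and 35802 to 38758 in TCM. The markers of melanocytes or melanoma summed to 757 to 864, 881 to 955 and 1003 to 1121 normalized counts, mostly from Mitf, with none of the 8 at 0 in all libraries of a group. Mlana, a defining gene of that lineage, measured 2.32 to 5.31 normalized counts in control and 0.951 to 6.74 in TCM, and was higher in all 3 lipid-depleted libraries, at 29.3 to 37.5. The list did not move one way: of the 6 tested, 2 were higher and 1 lower in lipid-depleted TCM than in TCM. Sox10 measured 144 to 232 in TCM and 106 to 133 after lipid removal. Keratinocyte markers summed to at most 131 normalized counts and endothelial markers to at most 190. Leukocyte markers, mostly Lyz2, summed to 252 to 356 in control, 157 to 199.6 in TCM, where Tyrobp was at 0 in all libraries, and 391 to 422 after lipid removal. The 7 pericyte or smooth muscle markers summed to 19996 to 21790 in the control libraries, 6144 to 7632 in the TCM libraries and 9721 to 9939 after lipid removal. Genes of the mitochondrial genome took 2.69% to 3.16% of counts in TCM, 1.85% to 2.15% in lipid-depleted TCM and 1.78% to 1.87% in control. The 3 TCM libraries also stood farther from each other: the median absolute log2 difference of a library from its own group was 0.14 to 0.16 in TCM and at most 0.085 in the other groups. The part that these shifts have in the results on the cyclins and inhibitors was not tested. In bulk RNA, fewer cells of a type and less RNA per cell cannot be told apart.

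All positions are in GRCm38, with gene bounds from GENCODE M21. Cdkn2a (ENSMUSG00000044303, chr4:89274471-89294653, minus strand) and Cdkn2b (ENSMUSG00000073802, chr4:89306299-89311039, minus strand) are neighbours, 11.6 kb apart. Cdkn2a has start sites 12.4 kb apart, an upstream one for the transcript of p19Arf, which protects p53 from MDM2, and a downstream one for p16Ink4a, which binds CDK4 and CDK6. Gene-level counts do not separate these transcripts. Cdkn2c (ENSMUSG00000028551, chr4:109660876-109667189, minus strand) encodes p18Ink4c and lies on the same chromosome, and Cdkn2d (ENSMUSG00000096472, chr9:21288410-21291407, minus strand) encodes p19Ink4d.

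The promoter windows of the 4 INK4 genes are shown, with both start sites of Cdkn2a and of Cdkn2c. They were chosen because these genes moved in pairs: Cdkn2a with Cdkn2b, and Cdkn2c with Cdkn2d. That does not single them out, as Ccnd1 with Ccnd3 and Cdkn1a with Cdkn1b were about as close. Each sequence is the 250 bases before a RefSeq start site in GRCm38.p6, 5′ to 3′ on the gene's strand. Capitals mark matches to an E2F motif (TTTCGCGC, TTTGGCGC, TTTCCCGC or TTTGCCGC) or to the GC box (GGGCGG), on either strand.
Cdkn2a upstream of the p19Arf start, chr4:89294620-89294869, minus strand: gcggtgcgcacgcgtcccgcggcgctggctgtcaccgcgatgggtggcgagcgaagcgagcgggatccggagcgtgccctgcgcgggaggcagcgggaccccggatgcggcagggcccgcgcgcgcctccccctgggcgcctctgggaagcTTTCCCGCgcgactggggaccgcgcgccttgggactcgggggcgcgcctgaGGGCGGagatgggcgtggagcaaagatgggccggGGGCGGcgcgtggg
Cdkn2a upstream of the p16Ink4a start, chr4:89282193-89282442, minus strand: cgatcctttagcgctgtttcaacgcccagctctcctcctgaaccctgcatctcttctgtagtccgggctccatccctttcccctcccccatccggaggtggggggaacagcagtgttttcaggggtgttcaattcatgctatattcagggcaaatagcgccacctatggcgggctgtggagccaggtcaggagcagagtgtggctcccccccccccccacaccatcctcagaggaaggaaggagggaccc
Cdkn2b, chr4:89311033-89311282, minus strand: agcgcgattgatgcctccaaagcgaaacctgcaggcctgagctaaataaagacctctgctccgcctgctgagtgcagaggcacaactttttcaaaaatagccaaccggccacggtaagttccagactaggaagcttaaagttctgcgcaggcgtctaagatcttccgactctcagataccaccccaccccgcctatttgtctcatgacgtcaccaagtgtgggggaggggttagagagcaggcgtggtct
Cdkn2c upstream start, chr4:109666757-109667006, minus strand: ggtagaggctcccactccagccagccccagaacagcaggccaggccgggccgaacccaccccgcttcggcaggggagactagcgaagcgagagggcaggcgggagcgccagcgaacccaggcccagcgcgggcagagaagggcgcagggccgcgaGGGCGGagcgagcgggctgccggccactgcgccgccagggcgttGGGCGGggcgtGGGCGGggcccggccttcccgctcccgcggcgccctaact
Cdkn2c downstream start, chr4:109665373-109665622, minus strand: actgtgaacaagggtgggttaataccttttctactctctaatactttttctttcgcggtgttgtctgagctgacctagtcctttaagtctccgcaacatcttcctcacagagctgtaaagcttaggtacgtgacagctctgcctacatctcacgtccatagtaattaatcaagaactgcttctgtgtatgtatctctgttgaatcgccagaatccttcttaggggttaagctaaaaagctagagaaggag
Cdkn2d, chr9:21291210-21291459, minus strand: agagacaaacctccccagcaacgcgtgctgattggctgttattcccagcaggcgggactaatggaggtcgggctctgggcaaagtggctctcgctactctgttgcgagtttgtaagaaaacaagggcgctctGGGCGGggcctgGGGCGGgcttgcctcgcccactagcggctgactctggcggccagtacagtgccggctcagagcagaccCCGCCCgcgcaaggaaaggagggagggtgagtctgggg

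The upstream Cdkn2a window held 1 E2F match, TTTCCCGC at -99 to -92 counted from the base before the start site as -1, and GC boxes beginning at -48 and -14. Neither motif was found in the downstream windows of Cdkn2a and Cdkn2c or in the Cdkn2b window. The upstream Cdkn2c window held 3 GC boxes, beginning at -95, -51 and -40, and the Cdkn2d window also held 3, beginning at -118, -106 and, on the other strand, -38. The windows differed in base composition, with 78.4% G or C upstream of the p19Arf start, 60% upstream of the p16Ink4a start, 53.6% for Cdkn2b, 77.2% and 42.8% for the upstream and downstream Cdkn2c windows and 63.6% for Cdkn2d. Among 32851 RefSeq windows of the same length, 1.86% held the E2F motif and 32.7% the GC box. Of 3 further motifs searched on both strands, the TATA box (TATAAA, in 12.4% of windows) had no match in the windows shown. The SMAD box (CAGACA, in 17.1%) had 1 match, at -189 to -184 of the downstream Cdkn2c window on the other strand. The cell cycle homology region (TTTGAA, in 16.0%) had 1 match, at -161 to -156 of Cdkn2b on the other strand. Windows were found for 7 of the 10 members, and these matches describe letters in them, not bound sites. Those of Cdkn1a, Cdkn1b and Ccnd3 are not shown. GC boxes were found for each of these genes, and a Cdkn1a window held a SMAD box at -136 to -131 on the other strand.

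The INK4 genes were lower in conditioned medium, Cdkn2a and Cdkn2b by the largest amounts, and the 3 D cyclins were lower after lipid removal. With limma and Benjamini-Hochberg adjustment over 16950 genes, 8 of 10 members passed an adjusted p of 0.05 in TCM against control, 2 higher (Cdkn1a, Cdkn1b) and 6 lower (Ccnd1, Ccnd3 and the 4 INK4 genes). Over all genes 60.5% passed, 29.5% higher and 31.0% lower. In lipid-depleted TCM against TCM 6 of 10 passed, 1 higher (Cdkn1c) and 5 lower (the 3 D cyclins, Cdkn2c and Cdkn2d), against 45.2% of all genes, 22.7% higher and 22.5% lower. In lipid-depleted TCM against control 9 of 10 passed, 2 higher (Cdkn1b, Cdkn1c) and 7 lower, against 60.0% of all genes, 29.4% higher and 30.6% lower. With shares this large over all genes, a call alone sets none of the members apart. In the same 3 comparisons the groups were free of overlap for 63.9%, 52.4% and 71.2% of all genes. For the members this held for 8, 7 and 9 of 10, so lack of overlap alone does not set a member apart either. The median log2 change of the 4 INK4 genes in TCM against control was -1.02, that of the 3 D cyclins -0.20 and that of the 3 CIP/KIP genes 0.14. Over all genes that median was -0.0022 and the median absolute change 0.33. In lipid-depleted TCM against TCM the INK4, D cyclin and CIP/KIP medians were -0.20, -0.24 and 0.11, and over all genes the median was 0.013 and the median absolute change 0.23. The INK4 medians fall between 2 pairs of genes. In TCM against control Cdkn2a and Cdkn2b changed by -1.56 and -1.76, and Cdkn2c and Cdkn2d by -0.48 and -0.35. Between the TCM groups the first pair changed by 0.18 and 0.13 and the second by -0.52 and -0.70. The comparisons share libraries, so their values for a gene are not independent.

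**Figure D1:**
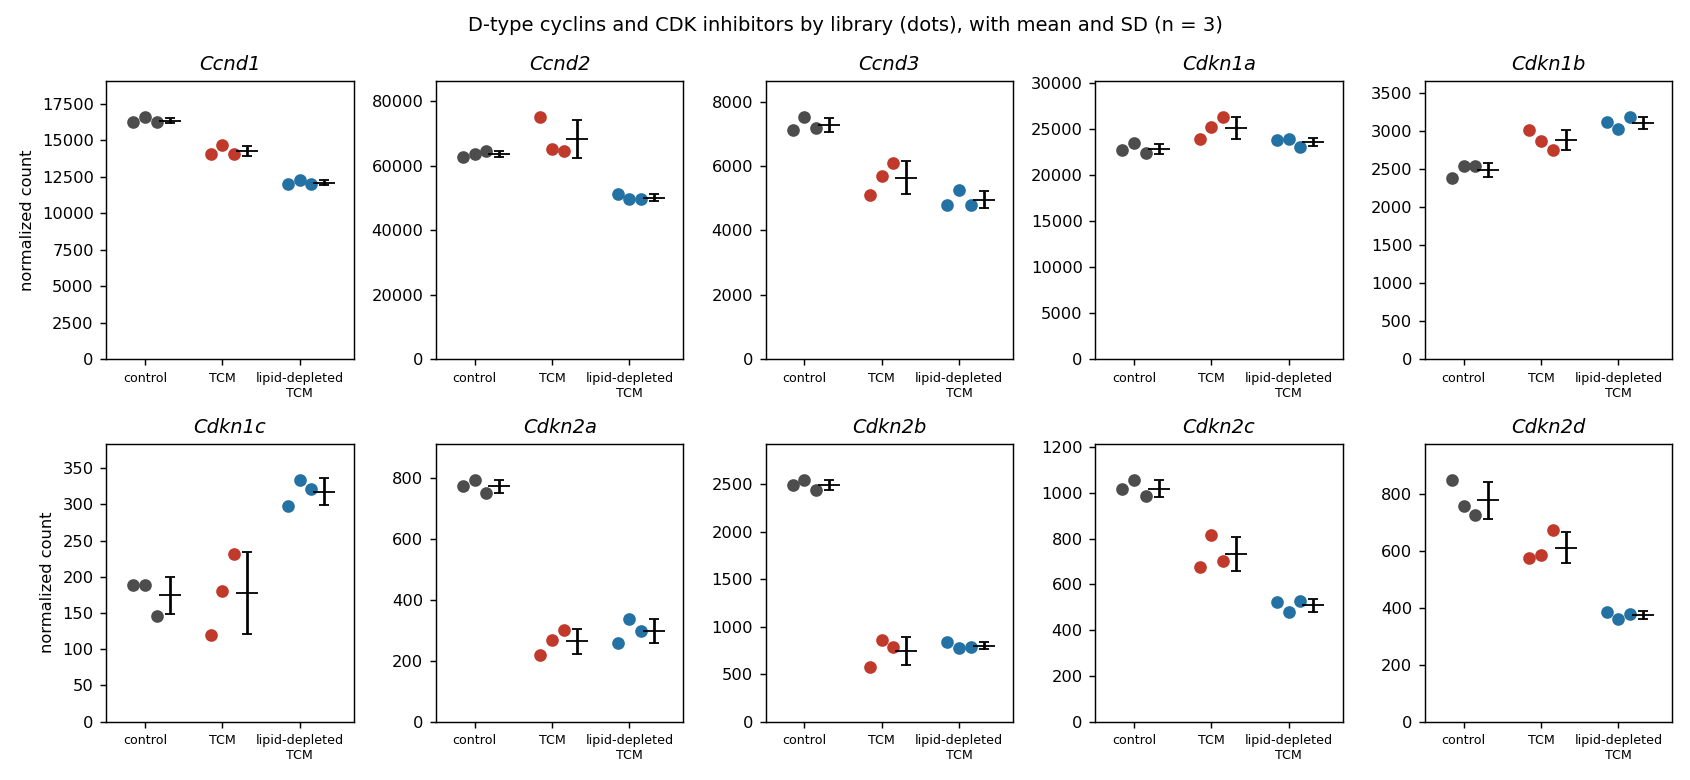
Normalized counts of the 10 members in each library (dots), by group, with the mean and SD of 3 libraries beside them; each panel has its own vertical axis starting at 0. Cdkn2a and Cdkn2b stand high in control and low in both TCM groups, whereas Cdkn2c and Cdkn2d step down from control to TCM to lipid-depleted TCM.

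Ccnd1 (ENSMUSG00000070348, chr7:144929931-144939925) encodes cyclin D1, the D cyclin most tied to growth factor signals. It stood at 16241, 16585 and 16255 normalized counts in the control libraries, 14079, 14704 and 14038 in TCM, and 11981, 12275 and 11982 in lipid-depleted TCM. The 3 groups did not overlap and each was lower than the one before. Ccnd1 fell by 12.8% from control to TCM (log2 change -0.20, SE 0.037, limma adjusted p = 0.00053). After lipid removal it was lower again, and against TCM it fell by 15.4% (log2 change -0.24, adjusted p = 0.0002), which left it 1.35-fold below control. With every library scaled to the same total, the change from control to TCM was -0.04 (adjusted p = 0.369) and the call was lost. The opposite-strand gene LTO1 overlaps Ccnd1, at 988 to 1156 normalized counts, and the strand setting of the counting is not given in the sources used here.

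Ccnd2 (ENSMUSG00000000184, chr6:127125162-127152193), the gene of cyclin D2, had the highest counts of the 10. Control libraries held 62814, 63788 and 64700 normalized counts, TCM libraries 75065, 65373 and 64452, and lipid-depleted libraries 51262, 49575 and 49568. The TCM libraries overlapped the control range, with 1 TCM library well above the rest, and all lipid-depleted libraries lay below both groups. In TCM against control the log2 change was 0.10 (SE 0.055, adjusted p = 0.15), and 0.03 without TCM replicate 1. Under the same library total it was 0.25 (adjusted p = 0.0023), past the threshold. Ccnd2 was 1.36-fold lower in lipid-depleted TCM than in TCM (log2 change -0.44, SE 0.055, adjusted p = 3.3e-05) and 1.27-fold lower than in control (adjusted p = 0.00013).

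Ccnd3 (ENSMUSG00000034165, chr17:47505051-47599691) encodes cyclin D3. It measured 7127, 7510 and 7177 normalized counts in control. TCM libraries held 5104, 5697 and 6103, and lipid-depleted libraries 4799, 5257 and 4785. Control lay above both other groups, which overlapped each other. Ccnd3 fell by 22.7% in TCM (log2 change -0.37, SE 0.063, adjusted p = 0.00022) and was 1.47-fold lower in lipid-depleted TCM than in control (adjusted p = 6.5e-06). Its difference between lipid-depleted TCM and TCM was small (log2 change -0.19, adjusted p = 0.029). That call was lost without TCM replicate 2 (adjusted p = 0.0618), TCM replicate 3 (0.117), lipid-depleted replicate 1 (0.0977) or lipid-depleted replicate 3 (0.107), and in a fit of these groups alone (0.0621). Bysl overlaps Ccnd3 on the opposite strand, at 1381 to 2067 normalized counts.

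The make-up of the D cyclins within a library does not depend on the size factor. It does depend on the length used for each gene, here the union of exons of all annotated transcripts. The shares are therefore not measured transcript amounts. Per kilobase of exon, Ccnd2 made up 61.2% ± 0.477 (SD, n = 3) of the summed D cyclin level in control, 66.3% ± 2.39 in TCM and 63.0% ± 0.815 after lipid removal. Ccnd1 made up 31.4% ± 0.336, 27.8% ± 1.69 and 30.3% ± 0.491, and Ccnd3 7.48% ± 0.172, 5.90% ± 0.797 and 6.67% ± 0.354. For Ccnd1 and Ccnd2 none of the groups overlapped, and each two-sided exact permutation test gave p = 0.1, the smallest value that 3 libraries against 3 allow. For Ccnd3 the groups overlapped between lipid-depleted TCM and TCM (exact p = 0.3) and in no other comparison. Between these groups the shares of Ccnd1, Ccnd2 and Ccnd3 differed by 2.55, -3.32 and 0.766 percentage points, and by 1.61, -1.94 and 0.334 without TCM replicate 1. Without division by length they differed by 1.76, -2.70 and 0.942 percentage points. The summed level was 10937 to 11157 normalized counts per kilobase in control, 10527 to 11549 in TCM and 8358 to 8539 after lipid removal. The lipid-depleted libraries lay below all others, and the control and TCM ranges overlapped.

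**Figure D2:**
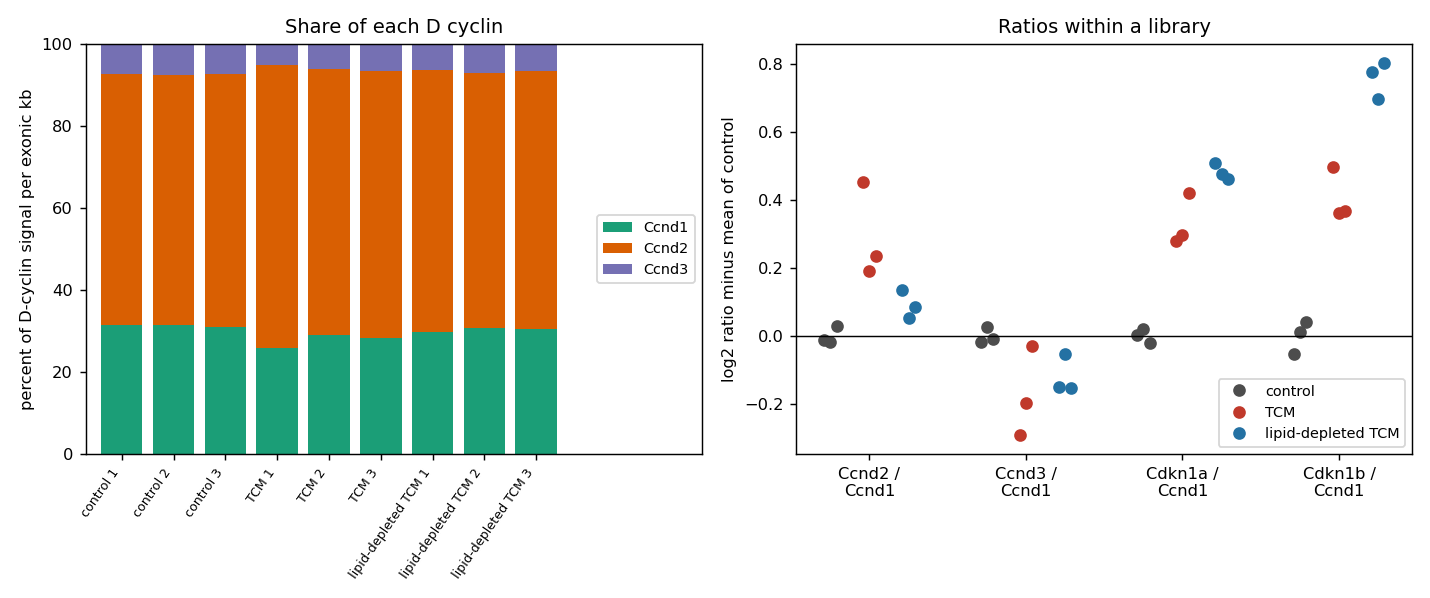
Left, share of Ccnd1, Ccnd2 and Ccnd3 in the summed D cyclin level per exonic kilobase of each library, in percent. Right, log2 ratios of 4 pairs of members in each library after subtraction of the control mean. The ratios of Cdkn1a and Cdkn1b to Ccnd1 step up from control to TCM to lipid-depleted TCM without overlap. In the last step Ccnd1 was lower and Cdkn1a itself was not higher.

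Among the CIP/KIP genes, Cdkn1a (ENSMUSG00000023067, chr17:29090976-29100727, plus strand) encodes p21. It gave 22738, 23510 and 22427 normalized counts in control. TCM libraries gave 23920, 25294 and 26300, and lipid-depleted libraries 23846, 23887 and 23077. TCM lay above control without overlap, and lipid-depleted TCM overlapped control. The rise in TCM was 1.10-fold (log2 change 0.14, SE 0.043, adjusted p = 0.016), and it missed the threshold without control replicate 1 (adjusted p = 0.0565), control replicate 3 (0.0615) or TCM replicate 3 (0.0591). Lipid-depleted TCM differed from TCM by -0.09 (adjusted p = 0.105) and from control by 0.04 (adjusted p = 0.401). Without TCM replicate 1 the former was -0.13 (adjusted p = 0.00997), and without TCM replicate 3 it was -0.06. Under the same library total the latter was 0.19 (adjusted p = 0.0015).

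Cdkn1b (ENSMUSG00000003031, chr6:134920401-134925513) encodes p27, the inhibitor that accumulates in resting cells. Its control libraries held 2377, 2538 and 2540 normalized counts, its TCM libraries 3017, 2868 and 2750, and its lipid-depleted libraries 3119, 3023 and 3179. The groups did not overlap, and each was higher than the one before. Cdkn1b rose 1.16-fold in TCM (log2 change 0.21, SE 0.050, adjusted p = 0.0027) and 1.25-fold in lipid-depleted TCM against control (adjusted p = 0.00011). The step from TCM to lipid-depleted TCM was 0.11 and did not pass (adjusted p = 0.09). Without TCM replicate 1 it was 0.15 (adjusted p = 0.0185).

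Cdkn1c (ENSMUSG00000037664, chr7:143458339-143461050), an imprinted gene that encodes p57, was the lowest of the 10 in each group by level per kilobase of exon. Control libraries held 189, 189 and 145 normalized counts, TCM libraries 120, 181 and 232, and lipid-depleted libraries 298, 334 and 321. The TCM libraries spread around the control range, and the lipid-depleted libraries lay above both groups. Cdkn1c rose 1.85-fold in lipid-depleted TCM against TCM (log2 change 0.89, SE 0.195, adjusted p = 0.0027) and 1.83-fold against control (adjusted p = 0.0019). In TCM against control the log2 change was -0.02 (adjusted p = 0.951). It was -0.23 without TCM replicate 3 and 0.24 without TCM replicate 1, so 1 library sets its sign.

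Relative to Ccnd1 in the same library, Cdkn1a and Cdkn1b stood higher in both TCM groups. The log2 ratio of Cdkn1b to Ccnd1 was -2.72 ± 0.049 (SD, n = 3) for control, -2.31 ± 0.077 for TCM and -1.96 ± 0.056 for lipid-depleted TCM. That of Cdkn1a to Ccnd1 was 0.48 ± 0.020, 0.82 ± 0.077 and 0.97 ± 0.024. From TCM to lipid-depleted TCM Cdkn1a itself changed by -0.09 and Ccnd1 by -0.24, so this ratio rose without a rise of Cdkn1a. In lipid-depleted TCM against control Cdkn1a changed by 0.04 and Ccnd1 by -0.44. The ratio of Ccnd2 to Ccnd1 changed by 0.29 in TCM against control and by -0.20 in lipid-depleted TCM against TCM, both on the log2 scale. Without TCM replicate 1 the latter was -0.12. Of the 12 differences tested (4 ratios in 3 comparisons), 11 were free of overlap, each with a two-sided exact permutation p of 0.1 (0.109 after Benjamini-Hochberg adjustment). The twelfth, Ccnd3 to Ccnd1 in lipid-depleted TCM against TCM, was 0.06 with overlapping groups (exact p = 0.5). All 4 ratios share Ccnd1 and the 3 comparisons share libraries, so these differences are not independent. Lack of overlap was common: it held for 63.9%, 52.4% and 71.2% of all single genes in the 3 comparisons. The share for ratios of other genes was not computed.

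Among the INK4 genes, Cdkn2b had the largest change of the 10 members in both comparisons with control, followed by Cdkn2a. Cdkn2b, which encodes p15Ink4b and is known as a target of TGF-beta, measured 2488, 2545 and 2441 normalized counts in control. TCM libraries held 580, 864 and 786, and lipid-depleted libraries 845, 772 and 788. Every control library was far above every TCM library, and the TCM groups overlapped. Cdkn2b fell 3.40-fold in TCM (log2 change -1.76, SE 0.113, adjusted p = 3.3e-08), a change whose size exceeded that of 95.2% of all genes, and was 3.11-fold lower in lipid-depleted TCM than in control (adjusted p = 6.2e-08). Between lipid-depleted TCM and TCM the difference was 0.13 (adjusted p = 0.383). It was -0.04 without TCM replicate 1 and 0.25 without TCM replicate 2.

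Its neighbour Cdkn2a had the same pattern. Control libraries held 773, 793 and 750 normalized counts, TCM libraries 221, 270 and 300, and lipid-depleted libraries 259, 337 and 299. Control stood apart and the TCM groups overlapped. Cdkn2a fell 2.95-fold in TCM (log2 change -1.56, SE 0.119, adjusted p = 1.8e-07) and was 2.60-fold lower in lipid-depleted TCM than in control (adjusted p = 5.6e-07). The difference between the TCM groups was 0.18 (adjusted p = 0.242), 0.06 without TCM replicate 1 and 0.28 without TCM replicate 3. It was 0.28 without lipid-depleted replicate 1 and 0.09 without lipid-depleted replicate 2. These misses of the threshold do not show that lipid removal left Cdkn2a and Cdkn2b as they were.

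Cdkn2c, which in mice restrains the proliferation of many cell types, declined in both steps. Control libraries measured 1015, 1056 and 985 normalized counts, TCM libraries 677, 817 and 703, and lipid-depleted libraries 521, 478 and 525, with no overlap between any groups. The log2 change was -0.48 in TCM against control (SE 0.079, adjusted p = 0.00018) and -0.52 in lipid-depleted TCM against TCM (adjusted p = 0.00017), which together left it 2.00-fold below control (adjusted p = 2.3e-07).

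Cdkn2d, whose transcript is known to oscillate with the cell cycle, held 851, 758 and 727 normalized counts in control. TCM libraries held 577, 587 and 676, and lipid-depleted libraries 386, 361 and 380. The groups again did not overlap. The log2 change was -0.35 in TCM against control (SE 0.084, adjusted p = 0.0034) and -0.70 in lipid-depleted TCM against TCM (adjusted p = 2.6e-05), and Cdkn2d was 2.07-fold below control after lipid removal (adjusted p = 2.8e-07). Under the same library total the first of these was -0.19 (adjusted p = 0.071) and missed the threshold.

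**Figure D3:**
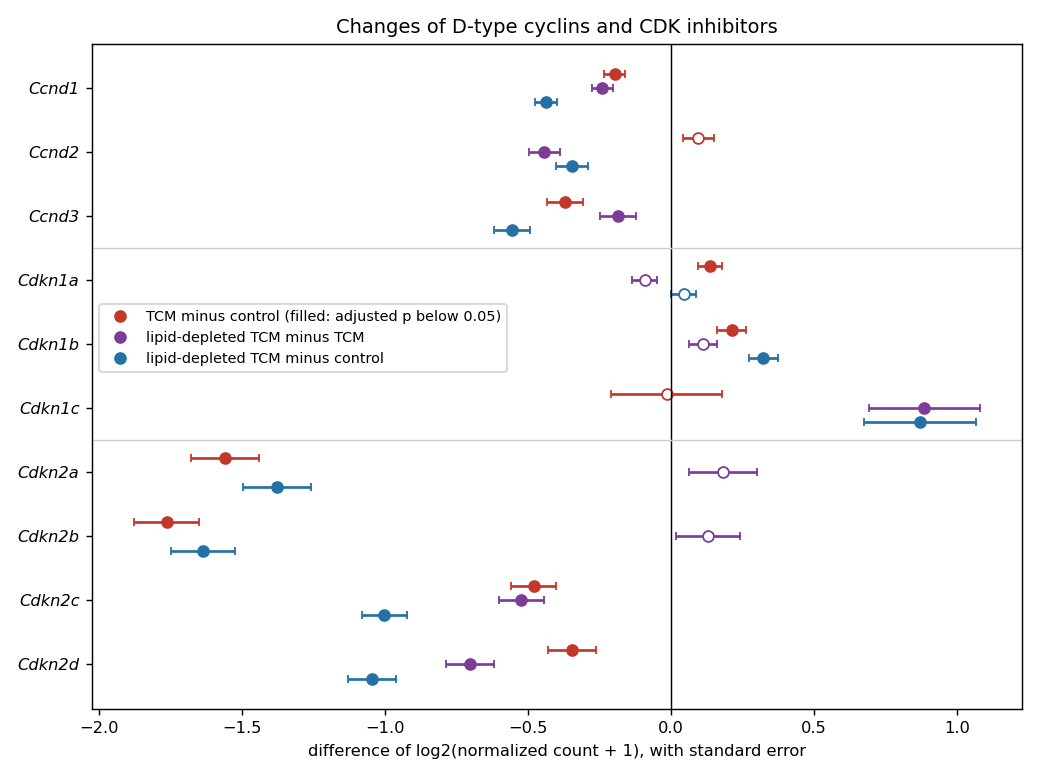
Differences of log2(normalized count + 1) for the 10 members in the 3 comparisons, with standard errors from limma; filled points passed an adjusted p of 0.05. Cdkn2a and Cdkn2b lie near -1.56 and -1.76 in TCM against control and within 0.2 of 0 between the TCM groups, and Cdkn1c lies near 0.9 in both comparisons of lipid-depleted TCM.

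The order of genes by level per kilobase depends on the length used, the union of exons of all annotated transcripts. It may differ from the order of transcript amounts. On that measure, Ccnd2 led in control at 6777 ± 100.2 (SD, n = 3) normalized counts per kilobase, followed by Cdkn1a at 6443 ± 157, Ccnd1 at 3474 ± 41.4 and Cdkn2b at 1792 ± 37.6. Below them came Ccnd3 at 829, Cdkn2a at 659, Cdkn1b at 546, Cdkn2d at 495, Cdkn2c at 379 and Cdkn1c at 85.6, and of these neighbours in the order, Cdkn1b and Cdkn2d overlapped between libraries. In TCM Ccnd2 (7259) and Cdkn1a (7085) overlapped, Ccnd1 followed at 3031, and Cdkn2b had dropped to 535, where Ccnd3 (642), Cdkn1b (632), Cdkn2b and Cdkn2d (390) each overlapped the next. Cdkn2c (273) and Cdkn2a (225) overlapped too, and Cdkn1c was last at 87.1. In lipid-depleted TCM Cdkn1a led at 6643, above Ccnd2 at 5328 and Ccnd1 at 2565 without overlap. Cdkn1b followed at 683, Cdkn2b (577) and Ccnd3 (564) overlapped, as did Cdkn2a (254) and Cdkn2d (239), and Cdkn2c (189) and Cdkn1c (156) closed the order.

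Scaling bears on the small changes. Under equal library totals the median of all genes moved by 0.16 in TCM against control and by 0.15 in lipid-depleted TCM against control. Under it 7272 genes were higher and 3678 lower in TCM, against 4995 and 5253 as deposited, and in lipid-depleted TCM against control 7054 were higher and 3687 lower, against 4984 and 5184. The members called were then 7, 6 and 10 in the 3 comparisons, against 8, 6 and 9. Cdkn2a (-1.40) and Cdkn2b (-1.61) still fell in TCM under that scaling, whereas Ccnd1 and Cdkn2d lost their calls and Ccnd2 gained one.

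**Figure D4:**
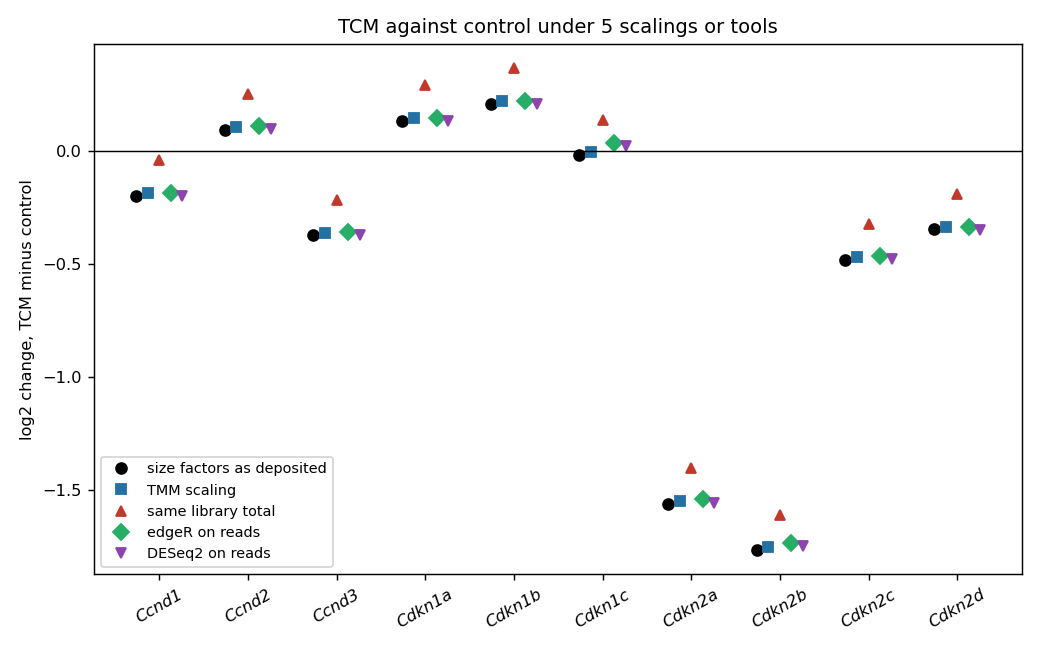
Log2 change of each member in TCM against control under the deposited size factors, TMM scaling, the same library total, and edgeR and DESeq2 on the recovered reads. The same library total shifts every member upward, which brings Ccnd1 to -0.04 and Ccnd2 to 0.25 and leaves Cdkn2a at -1.40 and Cdkn2b at -1.61.

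For comparison with the lists below, 60.5% of all genes passed in TCM against control (29.5% higher, 31.0% lower). Between the TCM groups 45.2% passed (22.7% higher, 22.5% lower), and in lipid-depleted TCM against control 60.0% (29.4% higher, 30.6% lower). The list of CDK4/6, the RB family and E2F factors moved in both directions in TCM, as did all genes. It also holds Cdk7, Ccnh, Mnat1 and Cdc37, which belong to none of these groups. Of its 19 genes, 8 were higher and 5 lower than in control (12 and 2 under the same library total). Their median log2 change was 0.06. E2f7, a repressor among the E2F factors, changed by -1.08 on the log2 scale (SE 0.067, adjusted p = 2.6e-08), and Mnat1, a subunit of the CDK-activating kinase, rose by 0.68. Cdk4, Cdk6 and Rb1 were picked after their values were seen: Cdk4 changed by 0.08 (adjusted p = 0.121), Cdk6 rose by 0.27 and Rb1 changed by -0.23 (adjusted p = 0.0043). After lipid removal, 9 of the 19 were lower than in TCM and none higher, led by E2f8 (-1.88) and E2f7 (-1.49). Against control, 5 were higher and 8 lower in lipid-depleted TCM (10 and 6 under the same library total).

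Genes that E2F factors induce for DNA replication were split in TCM and low after lipid removal. Of 20 such genes 6 were higher and 8 lower in TCM than in control (9 and 6 under the same library total), with Rrm2, a subunit of ribonucleotide reductase, at -1.06 and Tk1, thymidine kinase, at -1.04. In lipid-depleted TCM against TCM 19 of 20 were lower and none higher (median log2 change -1.0), with Cdc6, a loader of the replicative helicase, at -1.82 and Uhrf1, a partner of the maintenance DNA methyltransferase, at -1.58. Against control 19 of 20 were also lower, with Rrm2 at -2.32.

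The later cyclins and mitosis genes were lower in each step. Of 13 genes of the E, A and B cyclins, CDK1, CDK2 and their switches, 10 were lower in TCM than in control (7 lower and 1 higher under the same library total) and 13 were lower in lipid-depleted TCM than in TCM, with medians of -0.59 and -1.04. Ccna2, cyclin A2, went from 5495 ± 221 (SD, n = 3) normalized counts in control to 2751 ± 81.9 with TCM and 997 ± 90.6 after lipid removal. All 18 mitosis genes were lower in each of the 3 comparisons, with medians of -0.90, -1.42 and -2.36. Plk1, a mitotic kinase, changed by -2.67 in lipid-depleted TCM against control, and Mki67, the proliferation marker, by -1.63 against TCM.

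**Figure D5:**
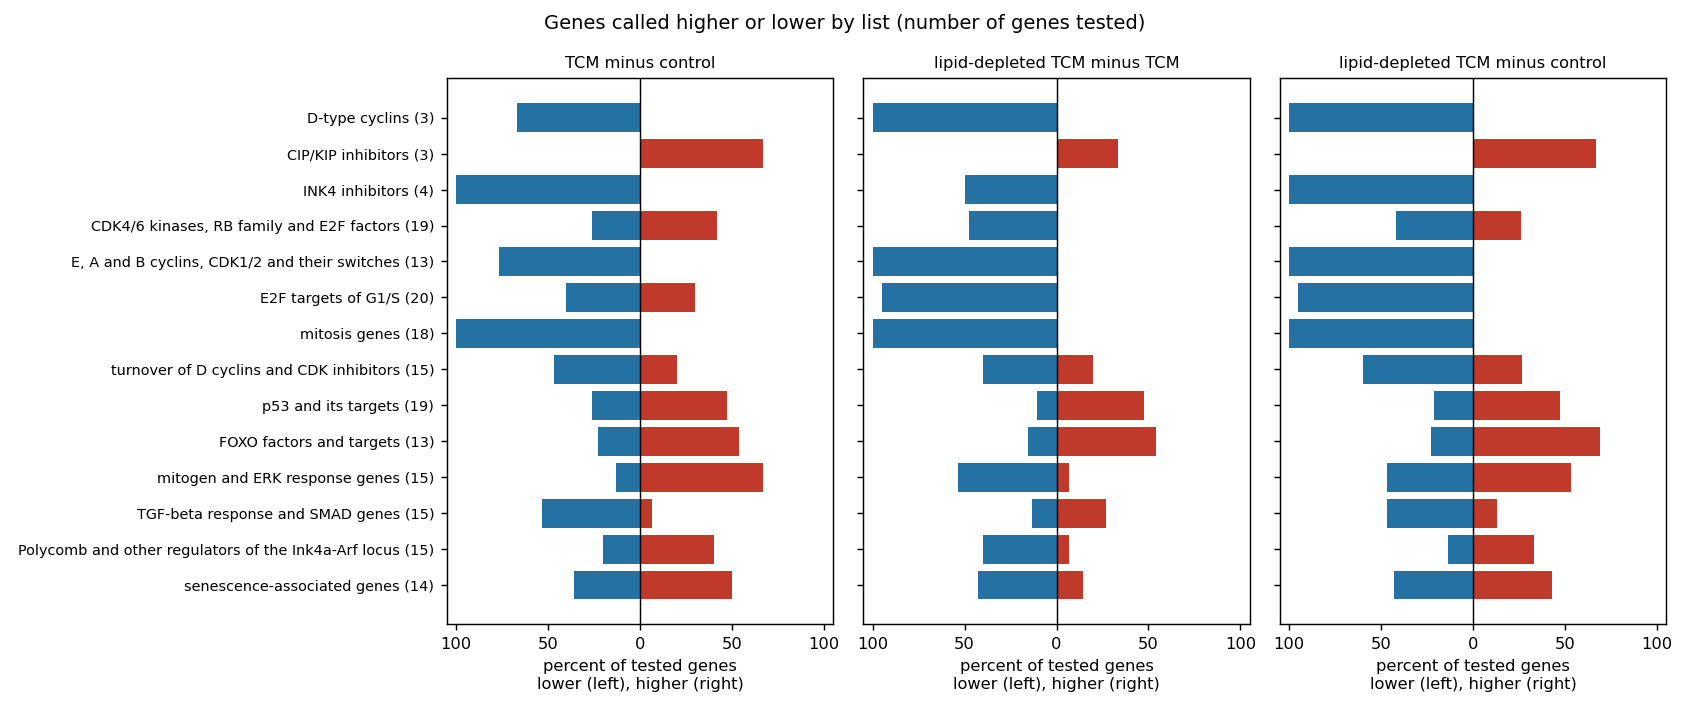
Percent of the tested genes of each list that passed an adjusted p of 0.05, lower to the left and higher to the right, in the 3 comparisons; the number of genes tested stands in brackets. The mitosis list is at 100% lower in all panels, and the INK4 genes are at 100% lower in both comparisons with control.

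Lists of regulators of the members held genes of both directions, as did all genes (29.5% higher and 31.0% lower in TCM against control). Holding both directions does not by itself set a list apart. The split between higher and lower differed from list to list, and no set test was run. Of 15 tested genes of the turnover of D cyclins and inhibitors, 3 were higher and 7 lower in TCM (6 and 4 under the same library total). Without control replicate 1, 6 were called in place of 10. Kpna2, an importin, changed by -0.85 and Ddb1, a ubiquitin ligase adaptor, by -0.67. After lipid removal 3 were higher and 6 lower than in TCM, with Dtl, a ubiquitin ligase subunit that acts in S phase, at -1.37, and 4 were higher and 9 lower than in control (5 and 7 under the same library total), with Cks1b, a cofactor of the ligase that degrades p27, at -1.25.

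Of 19 genes of p53 and its targets, the list to which Cdkn1a relates, 9 were higher and 5 lower in TCM than in control, 9 higher and 2 lower in lipid-depleted TCM than in TCM, and 9 higher and 4 lower than in control (15 and 1 under the same library total). Plk2, a stress-induced kinase, rose by 0.98 in TCM, and Fas, a death receptor, rose by 1.01 after lipid removal. Perp, a desmosome gene of low level, changed by -1.64 in TCM. Bbc3, which encodes the death protein PUMA, rose by 0.53 after lipid removal (adjusted p = 0.025). Without TCM replicate 1 that was 0.24, and its call was lost without lipid-depleted replicate 1 (adjusted p = 0.052), 2 (0.0767) or 3 (0.0618).

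Of 13 FOXO factors and targets, the list to which Cdkn1b relates, 7 were higher and 3 lower in TCM (9 and 2 under the same library total), 7 higher and 2 lower after lipid removal, and 9 higher and 3 lower in lipid-depleted TCM than in control. Gadd45a, a stress gene, rose by 1.99 in TCM. Pik3ip1, an inhibitor of PI3-kinase, changed by -1.50 in TCM and by 1.12 from TCM to lipid-depleted TCM, and Irs2, an adaptor of the insulin receptor, rose by 1.08 in the latter step.

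Of 15 mitogen and ERK response genes, which include inducers of Ccnd1, 10 were higher and 2 lower in TCM, 1 was higher and 8 lower in lipid-depleted TCM than in TCM, and 8 were higher and 7 lower than in control (8 and 4 under the same library total). Egr1, an immediate-early factor, rose by 1.63 in TCM and Spry2, a feedback inhibitor of ERK signaling, by 1.42. After lipid removal Fosl1 and Fos, subunits of the AP-1 factor, changed by -1.48 and -1.40.

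Of 15 TGF-beta response and SMAD genes, the list to which Cdkn2b relates, 1 was higher and 8 lower in TCM than in control (4 and 7 under the same library total). Id2 and Id3, BMP-responsive genes whose proteins block helix-loop-helix factors, changed by -3.21 and -3.03. Between the TCM groups 4 were higher and 2 lower after lipid removal, with Ccn2, a matricellular protein, at 1.02 and Id2 at -1.17. Without TCM replicate 1, 10 were called in place of 6. Against control 2 were higher and 7 lower (4 and 7 under the same library total), and 14 in place of 9 were called in a fit of these groups alone.

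Of 15 Polycomb genes and other regulators of the Cdkn2a locus, 6 were higher and 3 lower in TCM (7 and 2 under the same library total). Cbx7, a Polycomb subunit that represses Cdkn2a in fibroblasts, rose from 119 ± 27.7 (SD, n = 3) to 337 ± 20.7 normalized counts (log2 change 1.51, adjusted p = 1.2e-06) and stood at 477 ± 42.0 in lipid-depleted TCM. Ets2, an ETS factor known to induce p16Ink4a, rose by 1.28 in TCM. After lipid removal 1 was higher and 6 lower than in TCM: Cbx7 rose by 0.50 (adjusted p = 0.012, and 0.0534 without lipid-depleted replicate 2), and Ezh2, the Polycomb methyltransferase, changed by -0.61. Against control 5 were higher and 2 lower in lipid-depleted TCM.

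Of 14 tested senescence-associated genes 7 were higher and 5 lower in TCM (9 and 4 under the same library total), 2 higher and 6 lower after lipid removal, and 6 higher and 6 lower in lipid-depleted TCM than in control. Il6, a cytokine, rose by 2.64 in TCM and changed by -2.32 after lipid removal. Mmp3, a matrix protease, rose by 3.44 in TCM from 13.9 ± 9.72 (SD, n = 3) normalized counts, and Igfbp5, an IGF binding protein, changed by -3.32 in lipid-depleted TCM against control.

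Of the 10 members, 8 fell into pairs of nearest members. Nearness was the distance between genes over 2 log2 changes, TCM against control and lipid-depleted TCM against TCM. The closest pairs were Ccnd1 with Ccnd3 (distance 0.18), Cdkn2a with Cdkn2b (0.21), Cdkn1a with Cdkn1b (0.22) and Cdkn2c with Cdkn2d (0.22). A short distance can also join small changes of opposite sign. Between the TCM groups Cdkn1a changed by -0.09 and Cdkn1b by 0.11, and neither passed the threshold. Ccnd2 and Cdkn1c stood outside these pairs: the nearest member was Cdkn1a for Ccnd2 (0.35) and Cdkn1b for Cdkn1c (0.81). Among 176 genes of the lists above, the nearest to Ccnd1 was Jun (0.07), to Ccnd2 Etv4 (0.03), to Ccnd3 Fbxw7 (0.18), to Cdkn1a Cul1 (0.05) and to Cdkn1b Foxo4 (0.05). Ezh2 was nearest to both Cdkn2c (0.14) and Cdkn2d (0.09). Cdkn1c, Cdkn2a and Cdkn2b had no close neighbour: their nearest genes were Bbc3 (0.36), Tbx2 (0.58) and Perp (0.76). These distances are descriptions over 9 libraries, and the changes share the TCM libraries. Those of Jun, Etv4 and Foxo4 were smaller than the standard errors of their changes (0.138, 0.077 and 0.062). Tbx2 and Perp had low group means, at 11.8 to 24.3 and 16.2 to 51.2 normalized counts. Which gene stands nearest is therefore uncertain.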

How the data were processed

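The members and gene lists were chosen with earlier results of these data known. RNA was isolated with a Qiagen RNeasy kit and libraries were made with an Illumina TruSeq Stranded kit, per the labels' protocols. The submitters' processing notes name the build mm10, STAR 2.7.9a, Trim Galore 0.6.6, DESeq2 and FastQC. Which counter and annotation were used, and with what strand setting, is not given in the sources used here. The deposited signal is a library's read counts over its size factor. Taken as multiples of 1 step per library, 100% of values were whole (tolerance 0.01), giving 51015024 to 64965906 reads per library, and the factors matched median-of-ratios factors. No pair of replicates agreed within sampling noise. Of 55401 identifiers, 55141 were found in GENCODE M21.

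The 16950 genes that reached 10 normalized counts in 3 or more of the 9 libraries were tested with limma 3.58.1 in R 4.3.3 on log2(value + 1), with 3 group means and a variance trend over all libraries and Benjamini-Hochberg adjustment over the genes tested. Changes are on that scale, which understates those of low genes. The threshold for a call was an adjusted p of 0.05. The code was tested on simulated data. On the recovered reads the quasi-likelihood count test of edgeR 4.0.16 called 10232, 7744 and 10174 genes in the 3 comparisons, and DESeq2 1.42.0 called 9923, 7504 and 9915. Shares and ratios within libraries were compared by exact permutation tests. Lists were described by counts, with no set test. Further settings tried were a pseudocount of 0.5 or 5, a filter at 50 or none, the same library total, TMM scaling, the compared groups alone, a block for the replicate number, and each library left out in turn.

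Beside the members, the rule for named genes took, per list and comparison, the 2 called genes with the largest change and a mean of at least 50 normalized counts in the higher group, and the 2 list genes nearest to each member. Not all of these are printed. Skp1, 1 of the turnover list, was not analysed here. Sequences are from RefSeq (GRCm38.p6).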

Additional observations from a re-analysis of the deposited data

How the results depend on the processing

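The 19 alternatives were set against the counts of members called (8 in TCM against control, 6 between the TCM groups and 9 in lipid-depleted TCM against control). All counts stayed within 1.5 times of these, with ranges of 7 to 8, 5 to 8 and 9 to 9 when 1 library was left out. Of the members' 570 log2 changes under alternatives, 549 kept their sign and their side of the threshold. Another 10 lost a call, 4 gained one and 7 turned sign, none of the latter called. Some alternatives leave a log2 change as it was, so its sign could not turn in them. These are the changed filters, the compared groups alone, the replicate block and leaving out a library of the group not compared. For Cdkn1c in TCM against control the log2 change of -0.02 became 0.14 under the same library total, 0.036 with edgeR and 0.023 with DESeq2, and -0.23 to 0.24 when 1 library was left out. For Cdkn2b in lipid-depleted TCM against TCM, leaving out 1 library gave -0.041 to 0.25. For the log2 ratio of Ccnd3 to Ccnd1 in the same comparison it gave -0.0044 to 0.13. The causes were not tested. Same-numbered libraries did not deviate together (r of -0.025 to 0.027 over 9 pairs). That cannot tell whether they came from the same animal or culture, so whether the numbers pair the samples is not known. With the replicate number as a block, 8, 6 and 9 members and 9972, 7328 and 9961 genes were called. Of the other named genes, Perp in lipid-depleted TCM against control lost its call in 6 alternatives. Cdkn1c, at 120 to 334 normalized counts, had the widest standard error of the members (0.195).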
